A study of Mus musculus with 14 samples.

Results

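The 10 mouse genes Slc29a1, Fbxo15, Aard, Sox1, Emp1, Cactin, Prnp, Myef2, Zscan10 and Fblim1 had transcripts that were recovered more with an antibody against Flag-tagged Dppa5a than with control IgG. They were selected on these recoveries, with earlier results of these data known. Their values in the Flag, HU and IgG libraries below therefore describe how the genes were chosen and carry no test. All 10 symbols were found, among 24394 gene symbols in the tables of immunoprecipitated RNA and among 24345 in the RNA-seq tables. The series holds 14 libraries in 7 groups of 2. In RNA immunoprecipitation (RIP), an antibody pulls a protein out of a cell lysate and the RNA that comes with it is sequenced. The HU_Flag_RIP and Flag_RIP groups used a Flag antibody from Enogene, and the IgG_RIP group used IgG from Millipore. IgG is the reference for RNA that is recovered without an antibody against the tag. No Flag library from cells without the tag was analysed here. RNA that came with Dppa5a and RNA that the Flag antibody recovered by itself therefore cannot be told apart. All 6 RIP libraries came from mouse embryonic stem cells that overexpress 3Flag-Dppa5a, and they differ in antibody and treatment: HU in HU_Flag_RIP, none in Flag_RIP and none in IgG_RIP. The labels do not spell out HU, and an IgG library from HU-treated cells was not analysed here. The RNA-seq groups were stem cells with a knockdown of Dppa5a (Dppa5a_KD) and their wild-type control stem cells (KD_control), and wild-type stem cells (mESC) and wild-type primary embryonic fibroblasts (MEF), all untreated. The labels describe the stem cells as a home-made line kept on inactivated fibroblast feeders and passaged off them onto gelatin before harvest. They do not say how the knockdown was made, and no sequenced total RNA of the 3Flag-Dppa5a cells was analysed here.

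Dppa5a is a small protein of pluripotent cells and germ cells with a KH domain, a fold that many proteins use to bind RNA. Embryonic stem cells are pluripotent: they keep the ability to form all tissues of the embryo as long as a network of transcription factors that includes Pou5f1, Sox2 and Nanog is active. The 10 genes have unlike roles. Fbxo15 and Zscan10 are genes of the pluripotent state, Sox1 marks the earliest neural cells, Slc29a1 carries nucleosides across the cell membrane, Emp1, Prnp and Fblim1 belong to the cell surface and its contacts, and Cactin and Myef2 are proteins that work on RNA.

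RIP tables held read counts per gene, with totals of 7380542 to 9643717 in HU_Flag_RIP, 9471217 to 13036568 in Flag_RIP and 3473508 to 3705047 in IgG_RIP. The ribosomal RNA precursor Rn45s took 66.9% to 69.4% of the counts in HU_Flag_RIP, 72.6% to 73.2% in Flag_RIP and 39.3% to 47.9% in IgG_RIP. Outside Rn45s, Rmrp, Rpph1 and Lars2 there remained 703504 to 1494793 counts per library. CPM below are counts scaled to a library size that was adjusted with TMM, which takes most genes as equal between libraries. RNA-seq tables held FPKM, which is scaled by transcript length and library size and whose depth was not analysed here. Nothing in the labels says that the 2 libraries of a group were grown apart. The p-values therefore cover the spread seen between libraries, and this can be technical. Dppa5a itself was at 101 and 358 FPKM in Dppa5a_KD, against 5126 and 5417 FPKM in KD_control (limma log2 fold change -4.78, SE 0.63, adjusted p = 0.0088). In mESC it was at 1485 and 1818 FPKM, against 0 and 0.0871 FPKM in MEF. In the RIP libraries Dppa5a, whose own and 3Flag-tagged transcripts cannot be told apart in these tables, was at 170 and 160 CPM in Flag_RIP, against 232 and 252 CPM in IgG_RIP (edgeR quasi-likelihood test, log2 fold change -0.55, SE 0.24, adjusted p = 0.25). It was at 114 and 114 CPM in HU_Flag_RIP and was called lower there than in IgG_RIP (-1.08, SE 0.24, edgeR adjusted p = 0.017), a call that ended without any 1 of the 4 libraries compared (adjusted p = 0.057 to 0.18). Other cell types were followed through fixed markers. The summed level of 8 fibroblast markers was 0.399 to 3.28 CPM in the 6 RIP libraries, 2.76 and 6.73 FPKM in mESC, and 7373 and 6516 FPKM in MEF. The summed level of 5 macrophage markers was 10.5 and 36.3 CPM in HU_Flag_RIP, 4.47 and 5.50 CPM in Flag_RIP, and 111 and 46.2 CPM in IgG_RIP. Most of it was Lyz2, and Adgre1 was at 0 in 5 of the 6 RIP libraries. Lyz2 was called lower in Flag_RIP than in IgG_RIP (log2 fold change -4.23, SE 0.53, edgeR adjusted p = 1.4e-04). Over all fits run this fold change lay between -5.09 and -3.41. In RNA-seq Lyz2 was at 0 and 0.0332 FPKM in mESC and at 0.0328 and 0 FPKM in KD_control, against 28.1 and 32.6 FPKM in MEF. The part of the macrophage marker difference in the recoveries below was not tested.

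The first comparison asks which RNAs are recovered more with the Flag antibody than with IgG from cells that hold the tagged protein. Both Flag_RIP libraries stood above both IgG_RIP libraries for 10 of the 10 genes. The same holds for 23.7% of the 10473 genes that passed the filter on low counts. All 10 genes passed that filter. Their log2 fold changes in Flag_RIP against IgG_RIP lay between 1.22 for Prnp and 4.32 for Slc29a1, with a median of 2.36, against 0.02 over all genes in the fit. Among the 5483 genes with at least 5 CPM in Flag_RIP, Slc29a1 ranked 11, Emp1 24, Aard 26, Fbxo15 30 and Sox1 32 by this fold change. Cactin ranked 105, Zscan10 141, Myef2 208, Fblim1 239 and Prnp 342. Over all genes, the edgeR test called 1.16% higher and 1.16% lower in Flag_RIP against IgG_RIP at an adjusted p under 0.05, and nothing about the members is read from these shares. When libraries were scaled by their total counts alone, which includes Rn45s, the median of all genes moved to -0.87. The 10 genes then lay between 0.32 and 3.42, all still above 0.

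**Figure D1:**
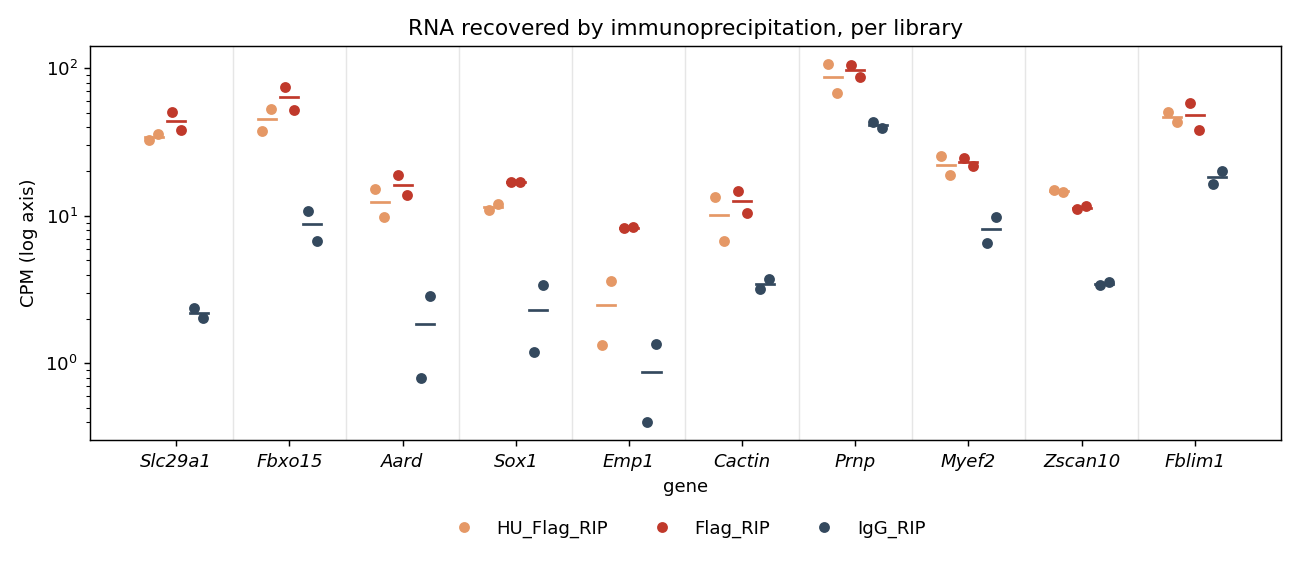
Recovery of the 10 transcripts in each RIP library, in CPM on a log axis. Points are libraries and short lines are means of 2 libraries. All Flag_RIP points stand above the IgG_RIP points of the same gene, and the HU_Flag_RIP points of Emp1 lie between 1.33 and 3.61 CPM, against 8.27 and 8.37 CPM in Flag_RIP.

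Slc29a1 encodes the equilibrative nucleoside transporter ENT1, which lets nucleosides pass the cell membrane along their gradient (mm10, chromosome 17, 45585200 to 45599603). It was at 50.4 and 38.2 CPM in Flag_RIP, against 2.39 and 2.03 CPM in IgG_RIP. The libraries of the 2 groups lay far apart, and the log2 fold change was 4.32 (SE 0.40). In counts this was 824 over both Flag_RIP libraries against 24 over both IgG_RIP libraries, a ratio of 20.5 after scaling, with a 95% exact (Clopper-Pearson) interval from 13.7 to 32.2 that covers counting error only. It was the gene among the 10 with the largest fold change. Of 6 other nucleoside carriers 5 were tested and none was called higher. Slc28a3, a concentrative nucleoside transporter, was at 3.50 and 4.87 CPM in Flag_RIP, against 20.3 and 20.1 CPM in IgG_RIP. In RNA-seq Slc28a3 was near 0, at 0.0236 and 0.113 FPKM in mESC and 0.291 and 0.146 FPKM in KD_control. It was lower with Flag (log2 fold change -2.27, SE 0.48, edgeR adjusted p = 0.015), a call that ended without either IgG_RIP library (adjusted p = 0.18 and 0.14) or without Flag_RIP library 1 (0.068). None of 11 tested genes of nucleoside and nucleotide salvage was called.

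Fbxo15 encodes an F-box protein, the part of an SCF ubiquitin ligase that picks substrates, and is known in mouse as a gene of pluripotent cells. Its recovery was 75.2 and 52.1 CPM in Flag_RIP, against 10.8 and 6.77 CPM in IgG_RIP, a log2 fold change of 2.87 (SE 0.36). The lower Flag_RIP library was still well above the higher IgG_RIP library. Fbxo15 shares its locus with Timm21, and since the sources used here do not say whether strand was kept, reads in the overlap cannot be told apart. Zscan10, a SCAN zinc finger transcription factor that helps to hold mouse stem cells pluripotent (chromosome 17, 23600826 to 23611019), was at 11.1 and 11.6 CPM in Flag_RIP, against 3.38 and 3.55 CPM in IgG_RIP (log2 fold change 1.70, SE 0.43). The libraries of each group were close to each other. Of 21 tested pluripotency factors none was called higher with Flag and 1 was called lower: Tfcp2l1, a transcription factor of the naive state, with 41.2 and 37.6 CPM in Flag_RIP, against 132 and 116 CPM in IgG_RIP (log2 fold change -1.65, SE 0.32, edgeR adjusted p = 0.0078). Without IgG_RIP library 1 or 2 its adjusted p was 0.19 and 0.10. None of 10 SCF subunits and F-box proteins and none of 11 SCAN-type zinc finger genes was called.

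Sox1 encodes a SoxB1 transcription factor that comes on in the early neural plate (chromosome 8, 12395519 to 12399555). It was at 16.9 and 17.0 CPM in Flag_RIP, against 1.19 and 3.39 CPM in IgG_RIP, a log2 fold change of 2.85 (SE 0.49). The Flag_RIP libraries were nearly equal, and the IgG_RIP libraries rested on 6 and 20 reads. Without IgG_RIP library 2 the fold change was 3.81. Sox1 shares its locus with the long noncoding RNA Sox1ot, which has no entry of its own here. Reads in the overlap cannot be told apart, in RIP or in RNA-seq. Of 12 other early neural genes 4 were tested and 1 was called higher, the zinc finger factor Zic2, with 24.9 and 13.7 CPM in Flag_RIP, against 2.39 and 1.35 CPM in IgG_RIP (log2 fold change 3.38, SE 0.63, edgeR adjusted p = 0.0060). Its adjusted p was 0.13 and 0.17 without IgG_RIP library 1 or 2. Neural markers summed to 9.53 and 9.62 CPM in Flag_RIP, against 4.98 and 5.59 CPM in IgG_RIP, and neither of the 2 markers tested was called.

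Emp1, a membrane protein of the PMP22 family (chromosome 6, 135362931 to 135383173), had 85 and 67 reads in Flag_RIP, against 2 and 8 reads in IgG_RIP. This was 8.27 and 8.37 CPM against 0.398 and 1.35 CPM, a log2 fold change of 3.19 (SE 0.75). The Flag_RIP libraries agreed closely, while the IgG_RIP level was too low to be measured well: the ratio of summed counts was 9.09 with a counting interval from 4.81 to 19.3. The fold change was 2.63 without IgG_RIP library 1 and 4.33 without IgG_RIP library 2. Prnp encodes the prion protein, a copper-binding protein anchored to the outer face of the membrane (chromosome 2, 131909928 to 131938436). It was at 106 and 87.7 CPM in Flag_RIP, against 43.6 and 39.6 CPM in IgG_RIP. Its log2 fold change of 1.22 (SE 0.29) was the smallest of the 10, but it had the most reads behind it, 1791 in Flag_RIP and 453 in IgG_RIP. Prnp shares its locus with Prn. Fblim1 encodes migfilin, a LIM protein that links filamin and kindlin at cell-matrix contacts (chromosome 4, 141576062 to 141606052). It was at 58.5 and 38.4 CPM in Flag_RIP, against 16.5 and 20.1 CPM in IgG_RIP (log2 fold change 1.40, SE 0.32), and without Flag_RIP library 1 the value was 1.07. None of the relatives of these 3 genes that were tested was called: 1 gene of the PMP22 family, 3 of the prion list and 14 filamin and adhesion partners.

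Cactin and Myef2 act on RNA. Cactin is a spliceosome-associated protein, named in Drosophila for its binding to Cactus (chromosome 10, 81321103 to 81326251). It was at 14.8 and 10.4 CPM in Flag_RIP, against 3.19 and 3.72 CPM in IgG_RIP, a log2 fold change of 1.86 (SE 0.49). Myef2 is a nucleic acid binding relative of hnRNP M, known in mouse as a repressor of the myelin basic protein gene (chromosome 2, 125086271 to 125123660). It was at 24.6 and 21.6 CPM in Flag_RIP, against 6.57 and 9.82 CPM in IgG_RIP, a log2 fold change of 1.49 (SE 0.37). Neither gene's groups overlapped. Myef2 shares its locus with Slc24a5. Among 9 hnRNP and Pur genes 2 were called higher, both of them proteins that bind pre-mRNA. Hnrnpa2b1 was at 111 and 98.2 CPM in Flag_RIP, against 38.8 and 33.7 CPM in IgG_RIP (log2 fold change 1.53, SE 0.29, edgeR adjusted p = 0.0064). Hnrnph1 was at 70.0 and 45.4 CPM in Flag_RIP, against 15.1 and 24.2 CPM in IgG_RIP (1.55, SE 0.35, edgeR adjusted p = 0.023). Both calls ended with total-count scaling (adjusted p = 0.11 and 0.20) and without IgG_RIP library 1 or 2 (0.14 to 0.36), and that of Hnrnph1 also without Flag_RIP library 1 (0.12). None of 12 splicing factors set beside Cactin was called.

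Aard, a gene named for a protein domain rich in alanine and arginine, lies at chromosome 15, 52040107 to 52045722. It had 194 and 110 reads in Flag_RIP, against 4 and 17 reads in IgG_RIP, or 18.9 and 13.7 CPM against 0.796 and 2.88 CPM. The log2 fold change was 3.11 (SE 0.54), and 4.33 without IgG_RIP library 2. The IgG_RIP libraries differed from each other more than the Flag_RIP libraries did in relative terms, and none of 3 tested genes from its chromosomal neighbourhood was called. Over the 12 lists of relatives and partners, 104 genes were tested in Flag_RIP against IgG_RIP, and 3 were called higher and 2 lower.

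With HU most of these transcripts were again recovered above IgG. Both HU_Flag_RIP libraries stood above both IgG_RIP libraries for 9 of the 10 genes, which holds for 23.9% of all genes in the fit, and Emp1 overlapped. The log2 fold changes of HU_Flag_RIP against IgG_RIP were 3.95 for Slc29a1 (SE 0.39), 2.72 for Aard (0.54), 2.37 for Fbxo15 (0.36), 2.29 for Sox1 (0.49) and 2.07 for Zscan10 (0.44). They were 1.54 for Cactin (0.49), 1.43 for Myef2 (0.37), 1.42 for Emp1 (0.77), 1.35 for Fblim1 (0.32) and 1.08 for Prnp (0.29). The median was 1.81, against 0.04 over all genes. The edgeR test called 1.44% of all genes higher and 1.42% lower in HU_Flag_RIP against IgG_RIP. With total-count scaling the 10 genes lay between 0.15 and 3.03 and the median of all genes at -0.88. This comparison and the one without HU share the IgG_RIP libraries.

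Set directly against Flag_RIP, the HU_Flag_RIP libraries were both lower for 3 of the 10 genes, Emp1, Sox1 and Slc29a1, both higher for Zscan10, and overlapped for the other 6. Over all genes the shares were 15.1% for both lower and 15.5% for both higher. Emp1 had 10 and 22 reads in HU_Flag_RIP, against 85 and 67 reads in Flag_RIP, or 1.33 and 3.61 CPM against 8.27 and 8.37 CPM. Its log2 fold change was -1.76 (SE 0.66), the ratio of scaled counts was 0.283 with a counting interval from 0.187 to 0.416, and 1.26% of all genes in the fit had a value at or under it. Without HU_Flag_RIP library 2 the value was -2.64, and without HU_Flag_RIP library 1 it was -1.21, so the HU libraries differed in size but not in direction. Sox1 was at 11.0 and 12.0 CPM in HU_Flag_RIP, against 16.9 and 17.0 CPM in Flag_RIP (log2 fold change -0.56, SE 0.43). Slc29a1 was at 32.7 and 35.8 CPM in HU_Flag_RIP, against 50.4 and 38.2 CPM in Flag_RIP (-0.37, SE 0.31, and -0.16 without Flag_RIP library 1). For both genes the difference was close to its SE.

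Zscan10 was the gene of the 10 with both libraries higher under HU, at 14.9 and 14.5 CPM in HU_Flag_RIP, against 11.1 and 11.6 CPM in Flag_RIP. The log2 fold change was 0.37 (SE 0.39) and the counting interval of the ratio of 1.30 went from 1.06 to 1.58. The other 6 genes had overlapping libraries. Fbxo15 was at 37.5 and 53.0 CPM in HU_Flag_RIP (log2 fold change against Flag_RIP -0.49), Aard at 15.1 and 9.85 CPM (-0.38) and Cactin at 13.4 and 6.73 CPM (-0.32). Prnp was at 107 and 68.1 CPM (-0.14), Myef2 at 25.4 and 19.0 CPM (-0.06) and Fblim1 at 50.2 and 43.4 CPM (-0.05). For Cactin, Prnp, Myef2 and Fblim1 the sign turned in at least 1 fit with a library left out. The median of the 10 was -0.34, against 0.00 over all genes. The edgeR test called 0.143% of all genes higher and 0.468% lower in HU_Flag_RIP against Flag_RIP.

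Among the relatives, 5 of 104 genes were called higher and 3 lower in HU_Flag_RIP against IgG_RIP, and none in HU_Flag_RIP against Flag_RIP. Upp1, which splits uridine, was at 87.3 and 45.2 CPM in HU_Flag_RIP, against 18.9 and 22.7 CPM in IgG_RIP (log2 fold change 1.67, SE 0.35, edgeR adjusted p = 0.012). Ada, adenosine deaminase, had 22 and 16 reads in HU_Flag_RIP, against 0 and 0 reads in IgG_RIP, and was called higher (edgeR adjusted p = 0.032). These were the 2 salvage genes called of 11 tested. In Flag_RIP, without HU, both were just over the threshold. Upp1 had a log2 fold change of 1.28 against IgG_RIP (edgeR adjusted p = 0.057). Ada had 15 and 20 reads in Flag_RIP, against 0 and 0 reads in IgG_RIP (edgeR adjusted p = 0.058). Zic2 (log2 fold change 2.92, edgeR adjusted p = 0.016), Hnrnpa2b1 (1.29, 0.017) and Hnrnph1 (1.39, 0.038) were again higher, while Slc28a3 (-2.19, 0.018), Tfcp2l1 (-1.84, 0.0030) and the pluripotency-linked chromatin protein Utf1 (-1.29, 0.026) were lower. All 8 calls ended in both fits that left out an IgG_RIP library and so had 1 in that group, with edgeR adjusted p from 0.057 to 0.36.

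The knockdown libraries ask what happens to these transcripts when Dppa5a is low, and they played no part in the recovery values that chose the genes, although their results were known when the genes were listed. Calls and p-values of the 10 genes in the knockdown therefore describe them and are no independent test. By limma on log2(FPKM + 1), 8 of the 10 genes rose in Dppa5a_KD, 1 fell and 1 was not called. Over all 12345 genes tested, 13.6% were called higher and 23.8% lower, which is 1677 and 2940 genes. With median-ratio scaling the balance over all genes turned round, to 2551 higher and 2123 lower. The median log2 fold change of the 10 was 0.79, against -0.11 over all genes tested. Fold changes on this scale understate the change of genes with low FPKM. With other scalings the median of all genes was between 0.02 and 0.05, and the same numbers of the 10 genes, 8 and 1, were called.

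**Figure D2:**
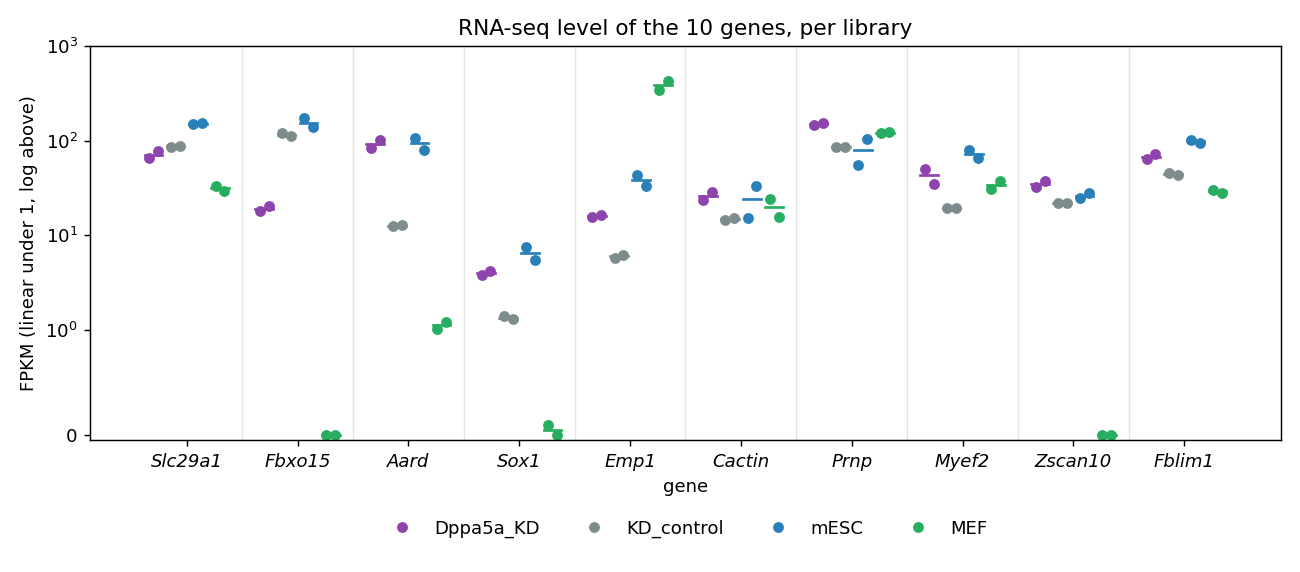
RNA-seq level of the 10 genes in each library, in FPKM, on an axis that is linear under 1 and logarithmic above. Points are libraries and short lines are means of 2 libraries. Aard stands at 82.7 and 101 FPKM in Dppa5a_KD, against 12.4 and 12.7 FPKM in KD_control, and Fbxo15 and Zscan10 are listed at 0 in both MEF libraries.

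Aard rose most. It was at 82.7 and 101 FPKM in Dppa5a_KD, against 12.4 and 12.7 FPKM in KD_control, or 92.0 ± 13.1 against 12.5 ± 0.220 FPKM (mean ± SD, n = 2 each). Its log2 fold change of 2.77 (SE 0.13, limma adjusted p = 0.0060) was higher than that of 99.9% of the genes tested. The mESC libraries were at 107 and 79.6 FPKM, so among the stem cell groups the KD_control libraries were the low ones. None of the 3 tested genes from its chromosomal neighbourhood was called.

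Fbxo15 moved the other way. It fell to 18.2 and 20.1 FPKM in Dppa5a_KD, against 120 and 110 FPKM in KD_control (log2 fold change -2.53, SE 0.11, limma adjusted p = 0.0060), lower than all but 0.178% of the genes tested. It fell in each of the 12 fits run. Zscan10, the other gene of the pluripotent state, rose: it was at 32.6 and 37.7 FPKM in Dppa5a_KD, against 22.0 and 21.7 FPKM in KD_control (0.66, SE 0.11, limma adjusted p = 0.015). Of 22 other pluripotency factors 6 rose and 1 fell, and their median was 0.28. Tdh, threonine dehydrogenase of mouse stem cells, was at 98.3 and 122 FPKM in Dppa5a_KD, against 21.4 and 22.8 FPKM in KD_control (2.26, limma adjusted p = 0.0060). L1td1, an RNA-binding protein derived from a LINE element, was at 142 and 114 FPKM in Dppa5a_KD, against 26.3 and 25.9 FPKM in KD_control (2.24, limma adjusted p = 0.0060). In mESC Tdh was at 106 and 138 FPKM and L1td1 at 234 and 225 FPKM. For both, the KD_control libraries were thus the low ones among the stem cell groups. Dppa3, a maternal factor of the early embryo, fell to 0.116 and 0.113 FPKM in Dppa5a_KD, against 2.55 and 2.74 FPKM in KD_control (-1.71, limma adjusted p = 0.0060). In mESC Dppa3 was at 2.81 and 11.5 FPKM, so here the Dppa5a_KD libraries were the low ones. Of 10 SCF genes 1 rose and 2 fell. Cul1, the scaffold of the ligase, rose and was at 36.6 and 26.8 FPKM in Dppa5a_KD, against 13.1 and 12.8 FPKM in KD_control (1.21, limma adjusted p = 0.0097). In mESC Cul1 was at 95.3 and 71.0 FPKM, so KD_control was its lowest stem cell group. Btrc, an F-box protein, fell (-0.80, limma adjusted p = 0.0076), with an adjusted p of 0.052 after rescaling to a common sum and 0.054 without KD_control library 2. Of 12 SCAN-type genes 1 rose, Zscan22 (0.82, limma adjusted p = 0.0084), and 1 fell.

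Slc29a1, whose fold change in Flag_RIP against IgG_RIP was the largest of the selected genes, was the gene not called. It was at 64.6 and 77.1 FPKM in Dppa5a_KD, against 86.4 and 87.0 FPKM in KD_control (log2 fold change -0.29, SE 0.13, limma adjusted p = 0.14). Both Dppa5a_KD libraries were lower than both KD_control libraries. In fits that left out a Dppa5a_KD library, which leave 1 library in that group and take the spread from the control, it was called lower (-0.17, adjusted p = 0.011, without library 1, and -0.42, adjusted p = 1.2e-04, without library 2). Of the 4 other nucleoside carriers tested 2 fell: Slc28a1, at 1.63 and 2.69 FPKM in Dppa5a_KD, against 4.53 and 4.78 FPKM in KD_control (-0.86, limma adjusted p = 0.026), and Slc29a3, a carrier of lysosomes (-0.73, limma adjusted p = 0.035). The Slc29a3 call ended with both other scalings (adjusted p = 0.074 and 0.17) and without either KD_control library (0.062 and 0.070), and both calls ended without a filter on low values (0.055 for Slc28a1 and 0.069 for Slc29a3). Of 12 salvage genes 1 rose, purine nucleoside phosphorylase Pnp (0.96, limma adjusted p = 0.012), and 3 fell, among them the mitochondrial kinase Dguok (-0.85, limma adjusted p = 0.012). The adjusted p of Dguok was 0.056 with all 8 libraries in 1 fit and 0.052 without KD_control library 2.

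Sox1 rose as well. It was at 3.80 and 4.18 FPKM in Dppa5a_KD, against 1.40 and 1.29 FPKM in KD_control (log2 fold change 1.09, SE 0.11, limma adjusted p = 0.0063). Of 6 early neural genes tested 1 rose and 2 fell. Otx2, a factor of the forebrain and of the epiblast, was at 1.11 and 0.926 FPKM in Dppa5a_KD, against 3.46 and 3.47 FPKM in KD_control (-1.15, limma adjusted p = 0.0062). Sox3, a SoxB1 relative of Sox1, was at 1.06 and 1.67 FPKM in Dppa5a_KD, against 3.46 and 3.15 FPKM in KD_control (-0.88, limma adjusted p = 0.017). The 5 neural markers summed to 57.7 and 63.8 FPKM in Dppa5a_KD, against 50.2 and 48.6 FPKM in KD_control. Most of it was Tubb3, which was not called (limma adjusted p = 0.051). Sox3, Pax6 and Map2 were lower in both Dppa5a_KD libraries, and Nes overlapped. Pax6 and Map2 did not pass the filter on low values. The part of these markers in the Sox1 result was not tested. The adjusted p of Otx2 was 0.051 and that of Sox3 0.11 when all 8 RNA-seq libraries shared 1 fit.

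Emp1 was at 15.4 and 16.2 FPKM in Dppa5a_KD, against 5.81 and 6.14 FPKM in KD_control (log2 fold change 1.27, SE 0.10, limma adjusted p = 0.0060). The 8 fibroblast markers summed to 6.51 and 6.45 FPKM in Dppa5a_KD, against 16.1 and 16.7 FPKM in KD_control, most of it Thy1 and Pdgfrb, and their part in the Emp1 result was not tested. Prnp was at 147 and 152 FPKM in Dppa5a_KD, against 86.3 and 85.3 FPKM in KD_control (0.79, SE 0.11, limma adjusted p = 0.010). Fblim1 was at 63.7 and 71.2 FPKM in Dppa5a_KD, against 45.8 and 43.2 FPKM in KD_control (0.59, SE 0.11, limma adjusted p = 0.019). All 3 of these genes rose with no overlap between the groups, while their relatives were mixed. Pmp22, the myelin protein that gives the family its name, fell to 0.521 and 0.624 FPKM in Dppa5a_KD, against 1.89 and 2.01 FPKM in KD_control (-0.91, limma adjusted p = 0.0073). Perp, a desmosome-linked member of that family, rose (0.78, limma adjusted p = 0.0092, but 0.098 and 0.063 without KD_control library 1 or 2). App, the amyloid precursor on the prion list, fell to 4.15 and 3.68 FPKM in Dppa5a_KD, against 10.8 and 11.4 FPKM in KD_control (-1.31, limma adjusted p = 0.0060). Of 14 adhesion partners of Fblim1 none rose and 1, Vcl, fell (-0.38, limma adjusted p = 0.042), a call that ended under 6 alternatives: the adjusted p was 0.19 and 0.41 with the other scalings, 0.14 with all 8 libraries in 1 fit, 0.079 with a replicate block, and 0.41 and 0.47 without a KD_control library.

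Both RNA-acting genes rose. Cactin was at 23.6 and 28.5 FPKM in Dppa5a_KD, against 14.3 and 15.0 FPKM in KD_control (log2 fold change 0.78, SE 0.13, limma adjusted p = 0.014). Myef2 was at 50.6 and 34.9 FPKM in Dppa5a_KD, against 19.3 and 19.3 FPKM in KD_control (1.08, SE 0.19, limma adjusted p = 0.016). The Dppa5a_KD libraries of Myef2 differed from each other but both stood above the controls. Of 9 hnRNP and Pur genes 5 rose and none fell. Hnrnpm, the hnRNP most like Myef2, was at 128 and 129 FPKM in Dppa5a_KD, against 55.5 and 55.7 FPKM in KD_control (1.19, limma adjusted p = 0.0061). Hnrnph1 was at 63.8 and 70.4 FPKM in Dppa5a_KD, against 30.6 and 29.3 FPKM in KD_control (1.14, limma adjusted p = 0.0062). In mESC Hnrnpm was at 133 and 227 FPKM and Hnrnph1 at 114 and 108 FPKM. KD_control was thus the lowest stem cell group for both. Of 12 splicing factors 1 rose, the helicase Dhx38 (1.12, limma adjusted p = 0.0098), and 1 fell. Over the 12 lists, 17 of 111 tested genes rose and 15 fell.

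**Figure D3:**
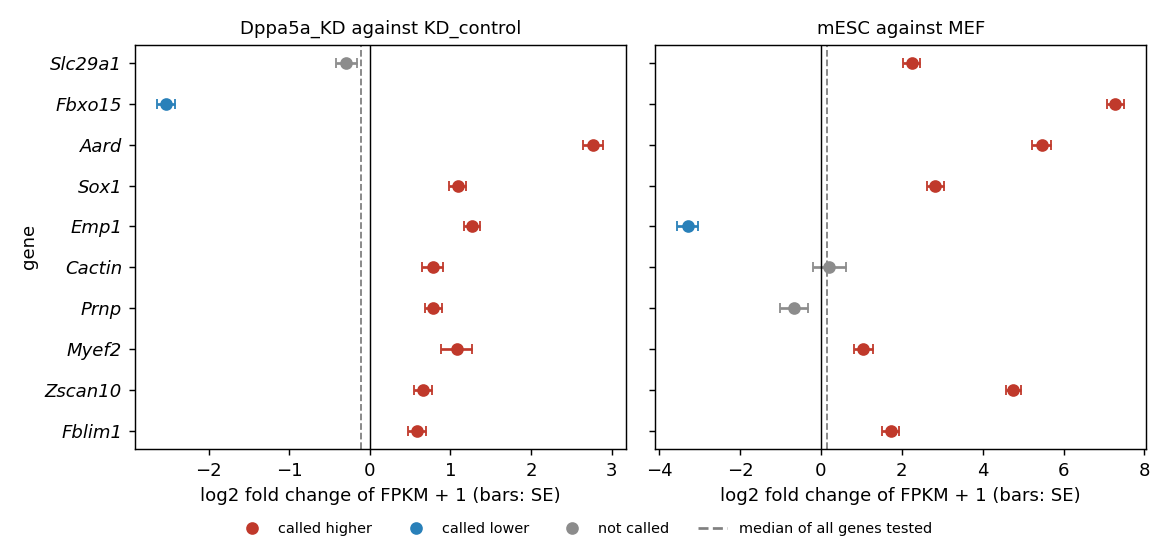
Log2 fold change of FPKM + 1 for each of the 10 genes, left for Dppa5a_KD against KD_control and right for mESC against MEF. Bars are standard errors, colours give the limma call at an adjusted p under 0.05, and the dashed line is the median of all genes tested. The left panel shows 8 genes called higher, Fbxo15 at -2.53 and Slc29a1 not called. The values of Fbxo15 and Zscan10 on the right are set by the added 1, since both are listed at 0 in MEF.

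Fewer calls held in some other fits. With all 8 RNA-seq libraries sharing 1 spread, Cactin (limma adjusted p = 0.14) and Prnp (0.074) were no longer called. Without KD_control library 1, Cactin (0.070), Prnp (0.15), Zscan10 (0.12) and Fblim1 (0.20) were not, and without KD_control library 2, Prnp (0.17), Zscan10 (0.14) and Fblim1 (0.28) were not. The direction of all 10 genes was kept in every fit. Markers of other cell types also differed. Of the macrophage markers Cd68 was at 15.0 and 18.4 FPKM in Dppa5a_KD, against 9.97 and 9.83 FPKM in KD_control. Csf1r was at 0.0792 and 0.00857 FPKM in Dppa5a_KD, against 0.133 and 0.166 FPKM in KD_control. Ptprc was at 0.00646 and 0.00629 FPKM in Dppa5a_KD, against 0.0488 and 0.0744 FPKM in KD_control. Both were near 0 and did not pass the filter on low values, and Adgre1 was at 0. Primitive endoderm markers summed to 9.78 and 8.21 FPKM in Dppa5a_KD, against 16.8 and 16.0 FPKM in KD_control. Their part in these results was not tested, and in bulk RNA a change in the number of cells of a type and a change of RNA per cell cannot be told apart.

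The 10 genes can be set beside the other transcripts called higher with Flag. Of those 111 other genes 99 were tested in the knockdown, and 9 (9.09%) were higher in Dppa5a_KD and 35 (35.4%) lower, with a median log2 fold change of -0.40. Of the 122 genes called lower with Flag 105 were tested, and 49 (46.7%) were higher in Dppa5a_KD and 8 (7.62%) lower, with a median of 0.45. Of the 10 genes 8 were higher and 1 lower. Since they were listed with the knockdown results known, this contrast has no test.

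**Figure D4:**
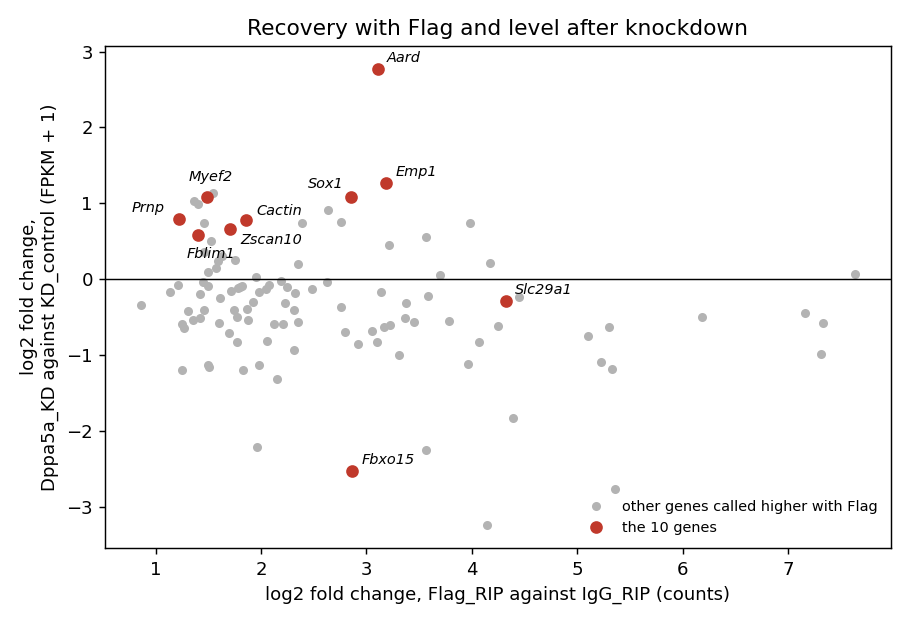
Log2 fold change of Flag_RIP against IgG_RIP in counts, across, and of Dppa5a_KD against KD_control in FPKM + 1, upward, for 109 genes called higher with Flag. The 10 genes are red and the other 99 grey. The red points lie above 0 except Slc29a1 at -0.29 and Fbxo15 at -2.53, while the grey points have a median of -0.40.

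The comparison of stem cells and fibroblasts gives the levels of the transcripts in these cells. By limma, 7 of the 10 genes were higher in mESC than in MEF, 1 was lower and 2 were not called. Of all 12875 genes tested 30.6% were called higher and 26.1% lower. The median log2 fold change of the 10 was 1.99, against 0.15 over all genes, or 0.01 with median-ratio scaling. The markers of the cell types followed their labels. Pou5f1 was at 682 and 1000.2 FPKM in mESC, against 0 and 0 FPKM in MEF, and 22 of 22 pluripotency factors were higher in mESC.

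Fbxo15 was at 172 and 138 FPKM in mESC, against 0 and 0 FPKM in MEF (limma adjusted p = 5.7e-05). Zscan10 was at 24.5 and 27.8 FPKM in mESC, against 0 and 0 FPKM in MEF (limma adjusted p = 7.5e-05). Sox1 was at 7.53 and 5.48 FPKM in mESC, against 0.0987 and 0 FPKM in MEF (log2 fold change 2.83, SE 0.21, limma adjusted p = 3.2e-04). All 3 were at or near 0 in fibroblasts. Aard was at 107 and 79.6 FPKM in mESC, against 1.03 and 1.21 FPKM in MEF (5.46, SE 0.23, limma adjusted p = 8.3e-05).

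Slc29a1 was at 150 and 153 FPKM in mESC, against 33.0 and 29.4 FPKM in MEF (log2 fold change 2.24, SE 0.21, limma adjusted p = 6.9e-04). Of 4 other nucleoside carriers 3 were higher in mESC and 1 lower. Fblim1 was at 102 and 94.4 FPKM in mESC, against 30.3 and 27.7 FPKM in MEF (1.73, SE 0.21, limma adjusted p = 0.0016). This was opposite to the partners of its protein, of which 14 of 16 tested were lower in mESC and none higher, such as Tgfb1i1 (-5.45, limma adjusted p = 6.2e-05) and Fhl2 (-5.44, limma adjusted p = 7.5e-05), both LIM proteins. Myef2 was at 78.9 and 64.9 FPKM in mESC, against 30.4 and 37.8 FPKM in MEF (1.05, SE 0.23, limma adjusted p = 0.013). Its call ended without mESC library 1 (adjusted p = 0.055) and without MEF library 1 or 2 (0.16 and 0.099), and that of Fblim1 without MEF library 2 (0.052).

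Emp1 was the gene lower in stem cells, at 43.5 and 33.3 FPKM in mESC, against 343 and 427 FPKM in MEF (log2 fold change -3.29, SE 0.26, limma adjusted p = 3.9e-04). Its relatives Emp3 (-6.26, limma adjusted p = 9.5e-05) and Pmp22 (-5.65, limma adjusted p = 6.5e-05) were lower too, and 3 of 4 genes of the family were. The summed fibroblast markers given above were at 2.76 and 6.73 FPKM in these mESC libraries, against 7373 and 6516 FPKM in MEF. Prnp was at 55.3 and 105 FPKM in mESC, against 121 and 122 FPKM in MEF (-0.67, SE 0.34, limma adjusted p = 0.15). Cactin was at 15.3 and 32.8 FPKM in mESC, against 24.0 and 15.6 FPKM in MEF (0.21, SE 0.41, limma adjusted p = 0.69), and its libraries overlapped. For both genes the mESC libraries stood far apart, and without mESC library 2 Prnp was called lower (-1.12, limma adjusted p = 0.016). Over the 12 lists, 57 of 114 tested genes were higher in mESC and 24 lower.

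Across the 4 RNA-seq groups the order of mean levels was mESC, KD_control, Dppa5a_KD and MEF for Slc29a1 and Fbxo15, with no overlap between neighbours. For Aard, Sox1 and Fblim1 it was mESC, Dppa5a_KD, KD_control and MEF, and only the mESC and Dppa5a_KD libraries of Aard overlapped. Myef2 had mESC first, then Dppa5a_KD and MEF, which overlapped, and then KD_control. Zscan10 was highest in Dppa5a_KD, then mESC, KD_control and MEF, without overlap. Emp1 had the order MEF, mESC, Dppa5a_KD and KD_control, without overlap. Cactin was highest in Dppa5a_KD, then mESC, MEF and KD_control, and the first and the second of these pairs of neighbours overlapped. Prnp was highest in Dppa5a_KD, then MEF, and its KD_control and mESC libraries overlapped. The KD_control libraries were thus below the mESC libraries for 9 genes by their means, with Prnp the exception. Both groups are labelled wild-type stem cells, and their difference was not tested.

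The gene most like each member over the 8 RNA-seq libraries, by Pearson's r of log2(FPKM + 1) among 8659 genes with at least 10 FPKM in 1 library, was Taf5l for Slc29a1 (0.997), Gca for Fbxo15 (0.995), Elac2 for Aard (0.996), Cyp2b23 for Sox1 (0.996) and Tpp1 for Emp1 (0.997). For the rest it was Babam1 for Cactin (0.967), Bcl2l1 for Prnp (0.973), Adss for Myef2 (0.996), Gdf3 for Zscan10 (0.999) and Msc for Fblim1 (0.993). The 8 libraries form 4 groups, so these values describe 4 levels more than 8 independent points.

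The start regions of 3 of the genes are shown because the genes differ in where they are on: Sox1 and Zscan10 in stem cells and not in fibroblasts, Emp1 most in fibroblasts. The windows are RefSeq's, on GRCm38.p6, from 250 bases before to 50 after the start site, on the plus strand, 5′ to 3′: chr8:12395269-12395568 for Sox1, chr17:23600576-23600875 for Zscan10 and chr6:135362681-135362980 for Emp1, the first of its 2 windows. Capitals mark matches, on either strand, to the octamer ATGCAAAT, which POU factors such as Pou5f1 can bind, the GC box GGGCGG, and the TATA motif TATAAA.
Sox1: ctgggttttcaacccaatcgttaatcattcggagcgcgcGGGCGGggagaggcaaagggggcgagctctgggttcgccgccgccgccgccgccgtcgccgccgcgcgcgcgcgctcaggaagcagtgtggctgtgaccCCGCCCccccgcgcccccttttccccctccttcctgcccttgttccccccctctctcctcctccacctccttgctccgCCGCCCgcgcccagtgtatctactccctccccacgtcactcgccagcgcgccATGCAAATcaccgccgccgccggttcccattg
Zscan10: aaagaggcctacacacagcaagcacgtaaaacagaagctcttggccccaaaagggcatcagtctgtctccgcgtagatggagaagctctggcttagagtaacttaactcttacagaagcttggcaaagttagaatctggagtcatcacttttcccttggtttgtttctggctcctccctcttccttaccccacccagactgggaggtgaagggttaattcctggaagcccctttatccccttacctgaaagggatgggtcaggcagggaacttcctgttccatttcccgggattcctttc
Emp1: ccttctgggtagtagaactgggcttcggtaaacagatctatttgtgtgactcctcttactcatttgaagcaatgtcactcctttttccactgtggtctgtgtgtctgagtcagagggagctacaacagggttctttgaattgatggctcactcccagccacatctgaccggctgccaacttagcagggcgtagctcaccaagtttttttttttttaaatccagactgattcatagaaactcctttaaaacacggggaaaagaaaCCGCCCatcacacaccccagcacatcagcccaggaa

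The Sox1 window held the octamer from base 19 after the start site and the GC box at -211, -112 and -34. The Emp1 window held 1 GC box, from base 15 on the other strand, and the Zscan10 window none of the 3 motifs. Windows were found for 8 of the 10 genes, 17 windows in all, as a gene can have several starts. Slc29a1 alone had 8 of them, so the 17 are not independent. The octamer stood in 1 of the 17, against 1.74% of all 32851 windows, the GC box in 11 of the 17, against 35.7%, and TATAAA in 1, that of Prnp, against 13.6%. Counted by gene, 7 of the 8 had a GC box in at least 1 window. A share by gene over all genes was not computed, so this count cannot be set against the 35.7% of windows. CpG pairs in the Sox1 window were 1.07 times the number its base composition gives, higher than in 97.0% of windows. In the Zscan10 window the ratio was 0.215 and in the Emp1 window 0.310. Zscan10 and Sox1, both near 0 in MEF, thus had unlike start regions. A match is a description of letters, and binding to these windows was not measured.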

How the data were processed

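RNA immunoprecipitated with Flag antibody or IgG and total RNA were sequenced in 14 libraries. The labels' protocols name Trizol for extraction and an NEBNext Ultra kit for the libraries. The authors deposited whole-number read counts per gene symbol for RIP, as the values show, and FPKM per locus for RNA-seq, per the file headers. The submitters' processing notes name HTSeq 0.6.1, TopHat2 2.0.8, CASAVA 2.19, Cuffdiff 2.1.1 and Cufflinks 2.1.1, without roles, and the build mm10. Strand, and the depth of the FPKM libraries, are not given in the sources used here. FPKM were summed over loci of a symbol. Of the count symbols, 27 read as dates (0.0206% to 0.0489% of counts) and were left out, as was 1 gene marked as failed.

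Counts were fitted with edgeR 4.0.16 (quasi-likelihood, TMM, filterByExpr, all 6 libraries) in R 4.3.3. TMM factors were 0.782 and 0.827 in HU_Flag_RIP, 0.790 and 0.846 in Flag_RIP, and 1.45 and 1.60 in IgG_RIP. FPKM were fitted with limma 3.58.1 (limma-trend, log2(FPKM + 1), genes averaging 1 FPKM or more in one of the groups compared). Adjusted p-values are Benjamini-Hochberg values over all genes tested, called under 0.05. Both fits were tested on simulated data. DESeq2 1.42.0, other scalings, filters, a pseudocount of 0.1, a replicate block and fits without each library were alternatives. Counting intervals are 95% Clopper-Pearson intervals of the split of summed counts. Promoter windows are RefSeq's (GRCm38.p6). Python 3.11.15 and matplotlib 3.10.9 were used for summaries and figures.

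The 10 genes and the 12 lists of relatives and partners (128 genes) were chosen with earlier results of these data known, so counts within the lists are descriptions. From each list up to 3 called genes with the smallest p were eligible to be named per comparison, and for likeness the gene with the highest correlation; Dppa5a, Rn45s and markers were added as checks.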

Additional observations from a re-analysis of the deposited data

Results flagged for a closer look

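Lyz2, a lysozyme gene of macrophages and related cells, was the named gene whose level differed between the Flag groups. It was at 9.70 and 32.7 CPM in HU_Flag_RIP, against 3.31 and 4.12 CPM in Flag_RIP, a log2 fold change of 2.50 (SE 0.51, edgeR adjusted p = 0.019). In IgG_RIP it was at 99.2 and 40.1 CPM. The call ended without HU_Flag_RIP library 2 (1.38, adjusted p = 0.50), in a fit of the 4 Flag libraries alone (adjusted p = 0.12) and with DESeq2 (adjusted p = 0.34). Its part in the recovery of the 10 genes was not tested.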

How the results depend on the processing

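In the knockdown 4617 genes were called; the count was 3023 with a mean of at least 5 FPKM, 2916 after rescaling to a common sum, 2992 with all 8 RNA-seq libraries in 1 fit, and 2415 to 9436 without a library. In mESC against MEF 7303 were called, and 2835 to 7056 without a library. In Flag_RIP against IgG_RIP 243 were called (121 higher, 122 lower), 2278 with total counts (64 higher, 2214 lower), 433 with no filter, 508 with a replicate block and 30 to 248 without a library. In HU_Flag_RIP against IgG_RIP 300 were called (151 higher, 149 lower), 2709 with total counts (92 higher, 2617 lower), 532 with no filter, 617 with a replicate block and 23 to 252 without a library. In HU_Flag_RIP against Flag_RIP 64 were called, 41 in a fit of those 4 libraries and 44 to 71 without a library. Deviations of same-numbered libraries from their group means correlated at 0.0138 in the knockdown, -0.558 in mESC and MEF, -0.0156 and -0.0338 for Flag_RIP and HU_Flag_RIP with IgG_RIP, and 0.383 between the Flag groups, and with 2 pairs and no shared source in the labels the numbers were not taken as pairs. A replicate block gave 5296 calls in the knockdown and 6408 in mESC against MEF (crossed numbers, chosen after seeing the data: 8950 calls), and changed no call of the 10 genes.

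Log2 fold changes that turned sign were those of Cactin in mESC against MEF (-0.318 without mESC library 2, -0.0921 without MEF library 2, up to 0.730 without another library) and, in HU_Flag_RIP against Flag_RIP, of Cactin (-0.914 to 0.0847 without a library), Prnp (-0.518 to 0.143, with 0.0013 without Flag_RIP library 1), Myef2 (-0.290 to 0.129, with 0.0406 without Flag_RIP library 1) and Fblim1 (-0.333 to 0.286, with 0.0442 without HU_Flag_RIP library 2 and 0.000899 with at least 30 counts in 2 libraries). The cause was not tested. Fits without a library left 1 in that group, which was assumed to vary like the others. Emp1, Aard, Slc29a1 and Sox1 rest on 10 to 26 reads in IgG_RIP, which limits how well their recovery is known.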
